A study of Homo sapiens with 18 samples.

Results

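PEA2, a platinum-resistant high-grade serous ovarian cancer (HGSOC) line, was compared with the other 5 ovarian cancer lines profiled beside it for chromatin accessibility by ATAC-seq, an assay in which the Tn5 transposase cuts and tags open DNA. Its 3 libraries, out of 18 in all, were chosen by their line name, and each 1 kb window was asked whether all 3 lay beyond all 15 libraries of the other lines. Its partner PEA1 comes from the same patient, whose ascites gave PEA1 ahead of any platinum treatment and PEA2 once the cancer had come back and no longer responded. PEO1 (sensitive) and PEO4 (resistant) came from another HGSOC patient before and after clinical resistance, and CP70 is a platinum-resistant derivative of the sensitive line A2780 that was selected in culture. All lines grew in RPMI-1640 with glutamine and 10% fetal bovine serum. Each group is 1 cell line, so the features of PEA2 cannot be told apart from those of its patient of origin, its resistance or its time in culture, and p-values below measure the spread between libraries of a line, which the labels do not describe as separate cultures.

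Open chromatin marks promoters, enhancers and insulators, where transcription factors displace nucleosomes. Promoters rich in CpG, at which KLF and SP factors bind GC boxes, are open in most cell types, whereas distal enhancers are opened by factors particular to a lineage or state, such as AP-1, FOXA, GATA, RUNX and TEAD proteins. HGSOC arises from the secretory epithelium of the fallopian tube and is known for widespread gains and losses of DNA copies, which change the number of ATAC-seq reads from a region together with its openness. In these data fewer DNA copies and less open chromatin cannot be told apart, since copy number was not measured.

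The deposited table holds 89428 windows as FPKM, the reads of a window scaled to its length and to the total of its library, which for windows of 1 kb is RPM. The PEA2 libraries held 17300163 to 22537463 reads, of which 17% to 20.7% fell in the windows, with a median of 28 to 40 reads per window. Over all 18 libraries the totals were 8972042 to 60495462 reads and the share in windows was 8.37% to 40.8%, lowest in A2780 (8.37% to 10.0%) and highest in PEO1 (38.9% to 40.8%) and PEO4 (32.8% to 35.9%). These shares differed more between lines than within them, and differences were therefore read on quantile-normalised log2(FPKM + 0.1), where all libraries have the same distribution. Log2 values below are PEA2 minus the mean of the 5 other line means on that scale, whereas FPKM values are given as deposited.

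Stretches from windows described below are shown first, as 200 bases outside exons on the plus strand of GRCh37, so that the sequence can be read beside the counts. The 5 stretches from windows more open in PEA2 come from introns of RIN2 (chr20:19797830-19798029), ELP2 (chr18:33719182-33719381), LAMA3 (chr18:21296559-21296758) and ADAM12 (chr10:127755086-127755285), and from the start of RANBP3L on its upstream side (chr5:36302233-36302432). Capitals mark matches to the AP-1 motif TGACTCA or TGAGTCA, the FOX motif TGTTTAC and the TEAD motif GGAATG, on either strand.
RIN2 intron: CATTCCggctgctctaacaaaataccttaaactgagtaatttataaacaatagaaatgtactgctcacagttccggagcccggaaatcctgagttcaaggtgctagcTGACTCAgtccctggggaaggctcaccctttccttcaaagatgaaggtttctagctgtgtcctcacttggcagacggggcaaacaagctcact
ELP2 intron: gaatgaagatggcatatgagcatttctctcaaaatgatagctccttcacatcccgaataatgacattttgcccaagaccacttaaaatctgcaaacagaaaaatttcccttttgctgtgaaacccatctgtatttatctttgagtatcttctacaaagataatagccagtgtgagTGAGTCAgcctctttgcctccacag
LAMA3 intron: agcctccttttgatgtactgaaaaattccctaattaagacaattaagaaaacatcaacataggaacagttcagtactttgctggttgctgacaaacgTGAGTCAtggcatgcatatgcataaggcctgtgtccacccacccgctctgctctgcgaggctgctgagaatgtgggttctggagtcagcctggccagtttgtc
ADAM12 intron: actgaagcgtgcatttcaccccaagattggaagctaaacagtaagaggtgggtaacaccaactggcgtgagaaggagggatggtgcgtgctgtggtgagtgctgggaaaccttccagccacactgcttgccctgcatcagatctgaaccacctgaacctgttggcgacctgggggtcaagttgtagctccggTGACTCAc
RANBP3L upstream: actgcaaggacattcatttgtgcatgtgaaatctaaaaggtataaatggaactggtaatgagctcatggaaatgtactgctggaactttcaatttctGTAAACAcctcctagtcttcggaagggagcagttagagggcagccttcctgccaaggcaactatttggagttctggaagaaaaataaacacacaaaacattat
Each of the 5 stretches was placed to hold a match, so their presence here is no result.

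The 2 stretches from windows less open in PEA2 lie just upstream of FAT1 (chr4:187645031-187645230) and in an intron of EPOR (chr19:11491990-11492189), again on the plus strand of GRCh37. Capitals mark the KLF/SP motif GGGCGG on either strand.
FAT1 upstream: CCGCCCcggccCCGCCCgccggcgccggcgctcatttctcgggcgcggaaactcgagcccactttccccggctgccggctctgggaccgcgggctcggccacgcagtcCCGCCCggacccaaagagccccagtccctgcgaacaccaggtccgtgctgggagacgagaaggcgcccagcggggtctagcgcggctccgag
EPOR intron: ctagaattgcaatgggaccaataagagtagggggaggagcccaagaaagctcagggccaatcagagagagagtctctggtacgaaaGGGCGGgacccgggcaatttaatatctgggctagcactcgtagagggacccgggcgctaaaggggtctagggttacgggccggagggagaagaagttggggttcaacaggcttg
The FAT1 stretch holds 75.5% GC and the EPOR stretch 56%, against 39% to 55% in the 5 stretches above. Both were placed to hold a match, so its presence is again no result.

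All 3 PEA2 libraries lay above all 15 others in 12813 windows (14.3% of the table) and below them in 11931 windows (13.3%). The same count for each other line was smaller. PEO1 lay beyond its 15 others in 17.6% of windows, PEO4 in 13.2%, PEA1 in 10.3%, A2780 in 4.89% and CP70 in 4.74%, against 27.7% for PEA2 on both sides together. Lines with a close partner have fewer windows in which they stand alone, and with each line's pair partner left out the shares were 34.1% for PEA2, 30.4% for PEO1, 28.1% for PEO4, 18.7% for PEA1, 18% for A2780 and 16.7% for CP70. PEA2 stayed first of 6, with less distance to the PEO lines. It was chosen with earlier results of these data known, so its first place is no independent result. The 6 lines were ranked on the normalised scale only. Many of these separations were narrow. The gap between PEA2 and the nearest other library was under 0.1 on the log2 scale in 1373 windows above and 1649 below. On the FPKM as deposited 56.1% of the windows above and 22.5% of those below also separated.

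**Figure D1:**
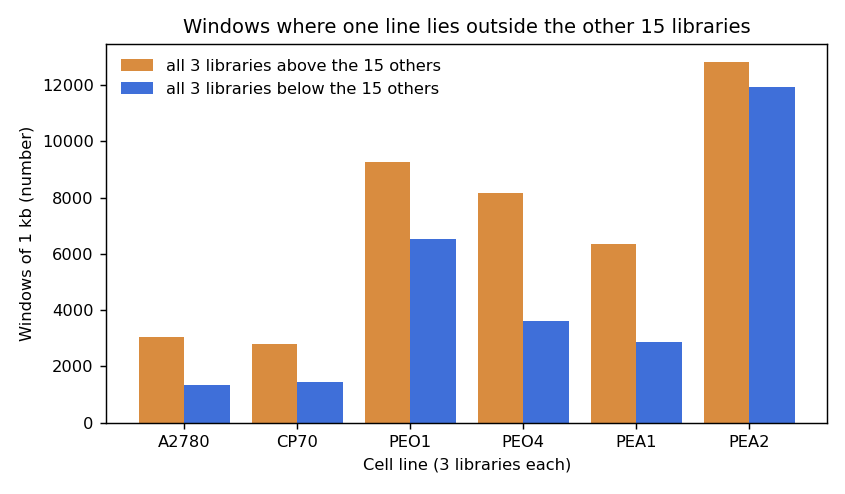
Number of 1 kb windows (y axis) in which all 3 libraries of a line (x axis) lay above or below the 15 libraries of the other 5 lines, on quantile-normalised values. PEA2 had 12813 windows above and 11931 below, and PEO1 came next with 9255 and 6522.

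With a log2 difference over 2 and an adjusted p below 0.001 (limma, Benjamini-Hochberg over all windows) added to that separation, 5391 windows were called more open in PEA2 (6.03% of the table) and 1392 less open (1.56%). In the windows called higher the median FPKM was 3.68 in PEA2 and 0.683 for the mean of the other lines, with a median fold of 5.26. In the windows called lower the medians were 0.667 and 3.69, and PEA2 was lower by a median of 5.79-fold. Of the calls, 79.5% were higher in PEA2. That share was 90.6% on the values as deposited, 60.4% after median centring and 64.7% after the median of each 5 Mb bin was removed. The median log2 difference over all windows was -0.14, and it was 0.07 as deposited and -0.27 after median centring. The number of lower calls rested in part on PEA1, the line from the same patient, since without it 2202 windows were called lower.

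The inclusion rule of the table bears on these counts, because a window needed more than 2 FPKM in at least 2 libraries. Of the 5391 windows called higher, 2053 (38.1%) would have been in the table without the PEA2 libraries, against 88.8% of all windows and 100% of those called lower. Most windows called higher were therefore listed only because PEA2 was measured. Deposited levels in the other lines were low there. The median FPKM over these windows was 0.374 in A2780, 0.369 in CP70, 1.03 in PEO1, 0.590 in PEO4 and 0.597 in PEA1. In the windows called lower the medians were 6.0 in PEO1 and 6.44 in PEO4, against 2.05 in PEA1, 1.48 in A2780 and 2.23 in CP70. PEA1 was the line next to PEA2 most often, as the second highest line in 32.5% of the higher windows and the second lowest in 44.8% of the lower ones, followed by PEO1 with 27.1% and 23.9%.

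Against each line singly, without the demand for separation from the rest, PEA2 had 5693 windows higher (6.37%) and 3056 lower (3.42%) than PEA1, its partner. The counts were 8451 higher (9.45%) and 3741 lower (4.18%) against A2780, and 8400 (9.39%) and 4179 (4.67%) against CP70. Against PEO1 they were 8705 (9.73%) and 5816 (6.5%), and against PEO4 9496 (10.6%) and 7513 (8.4%). These 5 comparisons share the PEA2 libraries. Their split depended on scaling, and on the values as deposited it was 18748 higher and 364 lower against A2780 but 5300 higher and 16959 lower against PEO1, the lines with the lowest and the highest share of reads in windows.

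The windows more open in PEA2 were mostly distal. Of those called higher, 2.00% were promoters, 42.2% intronic and 52.5% intergenic, against 19%, 37% and 37% of all windows. They lay a median of 67.7 kb from the nearest gene start (18.2 kb over the table) and held 44.5% GC (50.4%), and 1.69% were CpG-rich (23.3%). Since most of them entered the table only through PEA2, this make-up may also reflect the inclusion rule. It was not computed for the 2053 listed without PEA2. The windows called lower had the opposite make-up, with 36.7% promoters, a median distance of 1.00 kb, 58% GC and 49.6% CpG-rich windows. The higher windows joined into 4274 sites, of which 3288 were single windows, and the longest held 8 windows at chr5:172740601-172747900. The lower windows formed 1055 sites, 770 of them single, with the longest, also of 8 windows, at chr4:187643701-187651000 across the start of FAT1.

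Of the 8 leading windows more open in PEA2, taken by log2 difference at least 50 kb apart, 5 lay in introns. The first, at chr18:33513301-33514300 and 38.8 kb from C18orf21, held 12.6, 8.73 and 10.2 FPKM in the PEA2 libraries and 0 to 2.33 FPKM in the others (median 0.288), a log2 difference of 4.90 (SE 0.256, limma adjusted p = 1.36e-17). PEO1 was next with a mean of 1.71 FPKM, and no library overlapped PEA2. An intronic window of CCL28, a chemokine of mucosal epithelia, held 9.34, 7.17 and 8.30 FPKM in PEA2 and 0 to 0.863 (median 0.227) elsewhere, and the difference was 4.76 (SE 0.292, limma adjusted p = 6.99e-16). No library of another line reached 1 FPKM in it.

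Windows in FHOD3 and RIN2 behaved alike. FHOD3 encodes a formin that builds actin filaments in the sarcomeres of heart muscle, and its window at chr18:34163101-34164100 held 10.4, 6.94 and 10.2 FPKM in PEA2 against 0 to 1.06 (median 0.336), a log2 difference of 4.63. RIN2, an exchange factor for the endosomal GTPase RAB5, had 6.98, 5.55 and 5.86 FPKM against 0 to 0.903 (median 0.209), a difference of 4.48 (limma adjusted p = 4.86e-15). PEA1 replicate 2 gave the highest of the 15 other values in both windows, well below the lowest PEA2 library. The remaining 4 leading windows lay in introns of ZNF398 (11.1, 9.02 and 9.54 FPKM against 0.0758 to 2.44) and ELP2 (8.96, 6.88 and 6.97 against 0 to 3.64), 73.6 kb from ZNF777 (10.8, 7.23 and 10.2 against 0.111 to 1.15) and 220 kb from IRAK1BP1 (8.52, 6.18 and 7.90 against 0 to 0.606), with log2 differences of 4.37 to 4.56. ELP2 is a subunit of the Elongator complex, which modifies transfer RNAs, and the highest other library at its window was PEO1 replicate 1, at 3.64 FPKM.

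**Figure D2:**
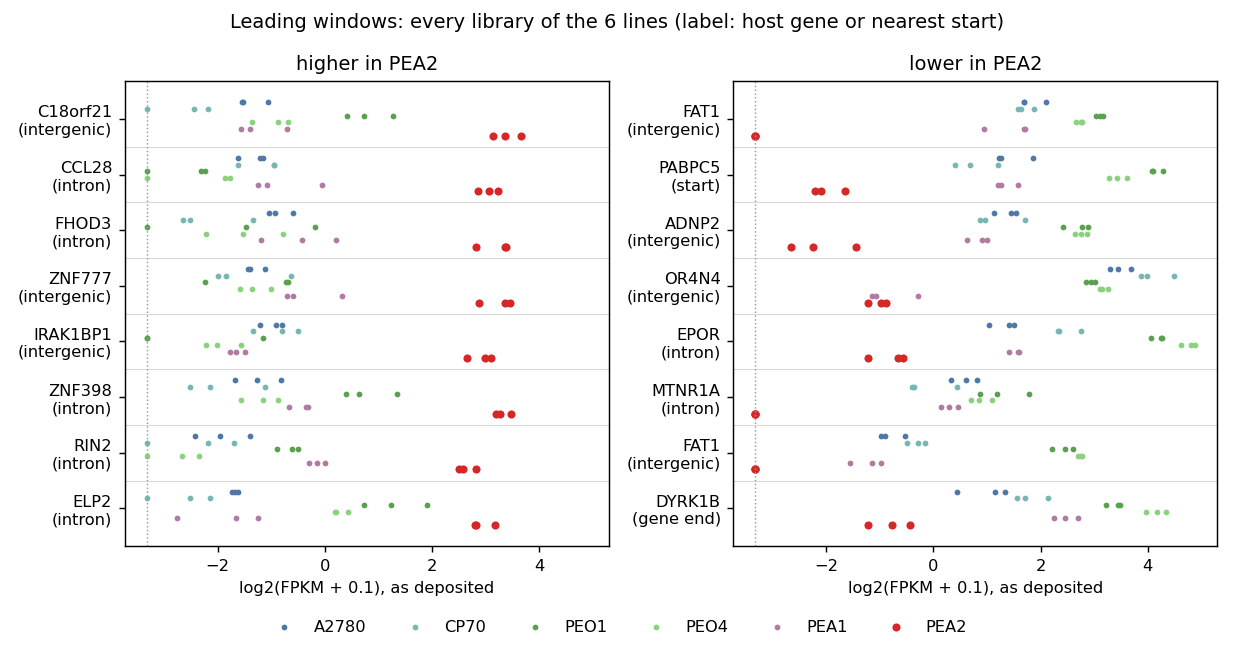
Deposited accessibility as log2(FPKM + 0.1) (x axis) of every library in the 8 leading windows of each direction (rows, named by the gene they lie in or nearest to), with lines in colour, PEA2 in red, and a dotted line at 0 reads. PEA2 stood right of all others in the 8 windows on the left panel and left of them in those on the right panel, apart from the window near OR4N4, where PEA1 overlapped it.

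The lowest of all windows relative to the other lines lay 2.79 kb upstream of FAT1, an atypical cadherin that acts as a tumour suppressor in several cancers. It held 0 reads in each PEA2 library, while the others ranged from 1.82 to 8.81 FPKM (median 3.56), so that PEA2 was at least 31.0-fold below the mean of the other lines, taking 3 reads per library as the floor (limma adjusted p = 1.38e-25). It belonged to a run of 10 neighbouring windows of the table, chr4:187543801-187649200, that covers the start of FAT1 over 105.4 kb and held 2 reads in all in the 3 PEA2 libraries, where the mean of the other lines was 1.04 to 4.87 FPKM per window. A second run of 5 windows at chr4:187686001-187767100 (81.1 kb) held 0 reads, at least 7.71-fold to 17.9-fold below the mean of the 5 lines. That mean rested on PEO1 and PEO4, with medians of 5.29 and 4.34 FPKM over the run. A2780 (0.447), CP70 (0.549) and PEA1 (0.364) were much nearer to the floor of 0.157 FPKM that 3 reads give in PEA2. No other run of 5 or more such windows was found. All 17 windows in or near FAT1 were called lower (median log2 difference -3.38), and its promoter window held 0.0550, 0 and 0 FPKM against 1.34 to 5.85 (median 3.60). The FAT1 stretch printed above lies in that promoter window.

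MTNR1A, a melatonin receptor gene in the same 5 Mb bin as FAT1, had a window of 0 reads in PEA2 at chr4:187475401-187476400. The other libraries held 0.658 to 3.34 FPKM there (median 1.43), and PEA2 was at least 9.66-fold below the mean of the other lines. It is thus near the FAT1 runs and not a distant site. On other chromosomes, the promoter window of PABPC5, an X-linked gene for a poly(A)-binding protein, held 0.220, 0.116 and 0.133 FPKM in PEA2 against 1.21 to 19.3 (median 2.90), a log2 difference of -4.26 (SE 0.139, limma adjusted p = 1.42e-22). The PEO lines were highest there and CP70 held the lowest other value, and no library of another line came near PEA2. EPOR, the erythropoietin receptor gene, had 0.330, 0.578 and 0.532 FPKM in its intronic window against 1.95 to 29.6 (median 4.97), a difference of -3.84 with no overlap. Near the start of DYRK1B, a kinase linked to quiescence, the window at chr19:40323601-40324600 held 0.330, 0.636 and 0.488 against 1.26 to 20.1 (-3.59). The window 163 kb from OR4N4 did not separate PEA2 from PEA1 on deposited values (0.330, 0.405 and 0.444 FPKM in PEA2, 0.352 at the lowest in PEA1, median of all others 8.72) and its call was lost as deposited, within GC classes and with its bin median removed. The window 39.2 kb from ADNP2 held 0.110, 0.0578 and 0.266 FPKM against 1.44 to 7.28 (median 2.82), a difference of -3.95, and the last of the 8, at chr4:187761601-187762600, lay in the second run without reads. In total 605 windows held 3 reads or fewer in every PEA2 library, 263 of them with a mean above 1 FPKM in the other lines.

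Counted by gene, 2210 of 18009 genes (12.3%) had at least 1 window called higher in the gene body or within 50 kb of the start, and 1668 (9.26%) had 1 called lower. RIN2 led with 43 of its 52 windows called higher (median log2 difference 2.58), then FHOD3 with 35 of 51 and MACROD2, which removes mono-ADP-ribose, with 21 of 52. CDH13, which encodes T-cadherin, had 18 of 19 windows called higher, a median of 2.72, and all 19 lay above the 15 other libraries. The next genes were SPOCK1 (17 of 29), which encodes a matrix proteoglycan, the metalloprotease genes ADAM12 (16 of 26) and ADAMTS12 (14 of 18), and LAMA3 (16 of 27), the alpha 3 chain of laminin in epithelial basement membranes. They were not read from a list, and no theme was tested. The leading window of LAMA3 held 8.68, 7.40 and 8.03 FPKM in PEA2 against 0.126 to 3.56 (median 0.299), a log2 difference of 4.08 (SE 0.235, limma adjusted p = 1.50e-16). PEA1 replicate 1 was the nearest library, at 3.56. KATNIP (16 of 26) had 15.8, 11.4 and 12.7 FPKM in its leading window against 0.101 to 4.83 (median 0.648), a difference of 4.17, with PEA1 again next. ZNF282 (15 of 33) completed the 10. For 9 of these 10 genes, all but SPOCK1, the 5 Mb bin at the middle of the gene had a median log2 difference over 1, up to 1.78 for RIN2 and MACROD2.

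Among genes with windows called lower, FAT1 was the only one of the 10 with every window called. JMJD8 had 20 of 85, PPP1R16A 20 of 61, DNASE1L2 12 of 23, CORO7 7 of 23, MAPK8IP3 8 of 16 and PKMYT1, an inhibitory kinase of CDK1, 11 of 26. JMJD8, DNASE1L2, PKMYT1, MAPK8IP3 and CORO7 all lie in the first 5 Mb of chromosome 16, a bin with a median of -1.62, and of the 10 genes only FAT1 lay in a bin above -1. YWHAG, a 14-3-3 adaptor gene, had 10 of 13 called lower, and its promoter window held 1.43, 1.68 and 1.42 FPKM in PEA2 against 3.42 to 34.1 (median 7.24), a log2 difference of -2.82, which was -1.41 and not called with its bin median removed. E2F2 (7 of 11), a transcription factor of the cell cycle, and NME1 (6 of 9) were the other 2.

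The called windows were unevenly spread along the genome. In 578 bins of 5 Mb with at least 20 windows, the median log2 difference ran from -1.62 to 1.97, and bins accounted for 36.4% of the variance between windows. The lowest bin was the first 5 Mb of chromosome 16, where 196 of 712 windows were called lower, and the highest was 35 to 40 Mb of chromosome 5, where 60 of 136 were called higher. The 38 bins above 1 held 33.7% of the windows called higher and 7.39% of all windows, and the 49 bins below -1 held 59.1% of those called lower and 10.5% of all. By chromosome, 14.6% of windows were called higher on 5 and on 20, 11.8% on 13 and 10.8% on 16, which also had the largest share of lower calls, 6.70%. After each bin's median was removed, 1837 windows were called higher and 1004 lower, of which 1398 and 186 were also called before. All 8 leading higher windows stayed called, at log2 differences of 2.70 to 3.43. Of the 8 leading lower windows the one near OR4N4 lost its call (-2.25), 6 stayed called and PABPC5 had no bin of enough windows. Whether DNA copies differ in these bins was not tested.

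**Figure D3:**
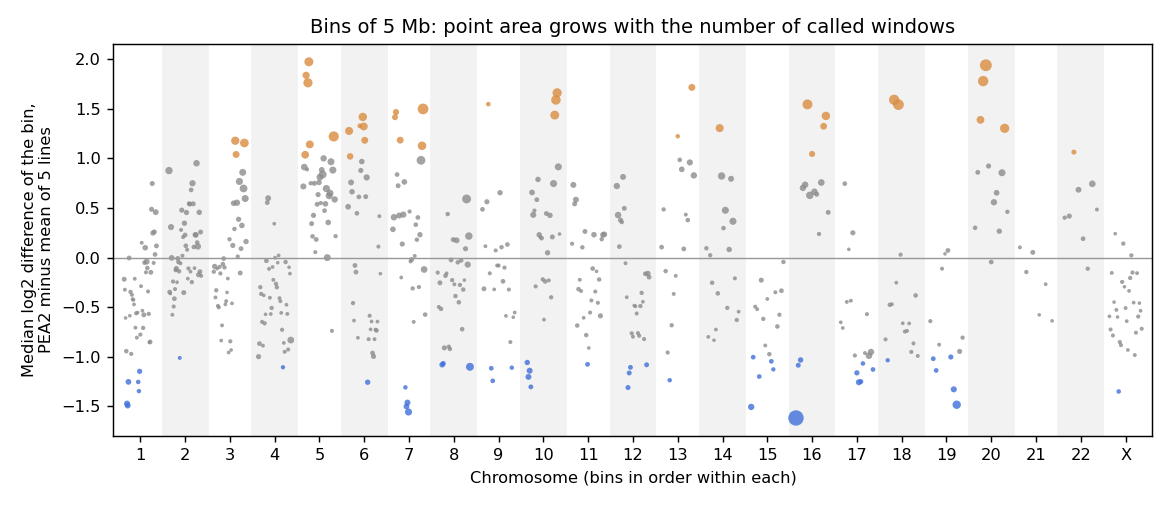
Median log2 difference, PEA2 minus the mean of the 5 other lines (y axis), of each of 578 bins of 5 Mb, in order along each chromosome (x axis), with point area growing with the number of called windows, orange above 1 and blue below -1. Bins of chromosomes 5, 9, 10, 13, 16, 18 and 20 reach above 1.5, and the first bin of chromosome 16 is the lowest at -1.62.

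Accessibility in PEA2 also moved with GC content. The median log2 difference was 0.12 in the lowest of 10 equal groups of windows by GC, 0.19 in the third and -0.53 in the highest. The percentage called higher was 11.5% in the second group and 0.201% in the last, and the percentage called lower went from 0.581% to 3.79%. Promoter and other windows both followed this course, with promoter medians of -0.36 to -0.63 and other windows from 0.28 in the third group down to -0.46. The libraries themselves differed in how steeply normalised values climbed with GC. Between the lowest and the highest group the median quantile-normalised log2(FPKM + 0.1) increased by 1.02, 1.65 and 1.37 in the 3 PEA2 libraries. The increase was 2.80 to 3.17 in A2780 and CP70 and 2.47 to 2.63 in PEA1. In PEO4 it was 1.61 to 1.75 and in PEO1 0.915 to 1.16. PEA2 was thus shallower than PEA1 in each library and overlapped PEO1 and PEO4. Normalising within GC classes left 2803 windows called higher and 779 lower, of which 2426 and 674 were among the calls above.

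**Figure D4:**
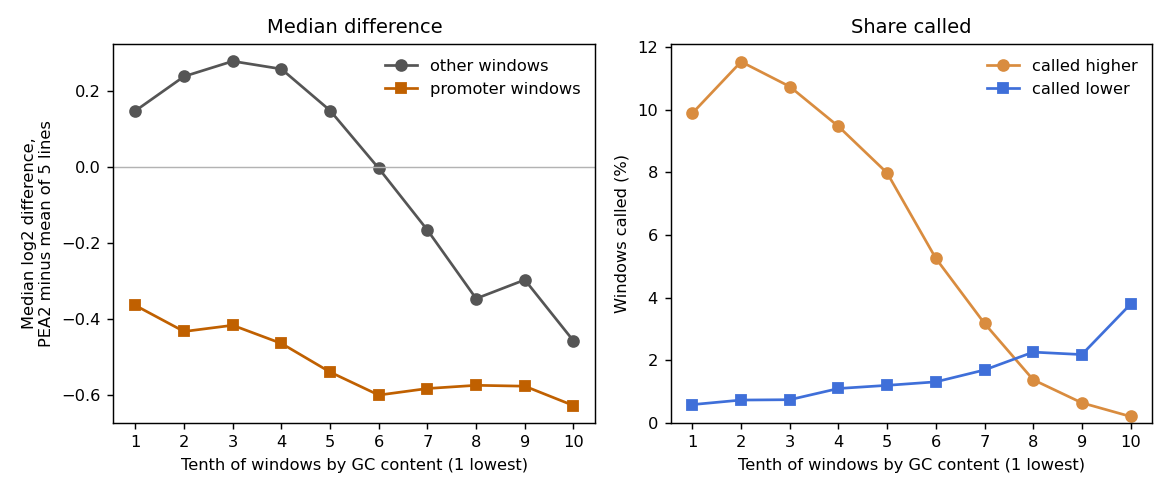
Left, median log2 difference of PEA2 against the other lines (y axis) in 10 equal groups of windows by GC content (x axis, 1 lowest) for promoter and other windows, and right, the percentage of windows called in each direction. The other windows fall from 0.28 in the third group to -0.46, and the percentage called higher falls from 11.5% to 0.201%.

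Sequence motifs were counted in the 72431 windows away from promoters, on both strands. The AP-1 motif TGACTCA or TGAGTCA was present in 46.5% of the 5283 distal windows called higher, 32.5% of all distal windows and 19.3% of the 881 called lower. The FOX motif TGTTTAC was in 18%, 12.4% and 9.99% of these and the SOX motif ACAATGG in 15.5%, 11% and 9.76%. The letters AGATAAG bound by GATA factors were in 14.8%, 10.4% and 7.15%, and the RUNX motif TGTGGTT in 22.7%, 18.4% and 13.6%. TEAD (GGAATG) was in 52.3%, 47.8% and 41.9%. The GC-rich motifs ran the other way. KLF/SP (GGGCGG) was in 17.6% of higher, 37.3% of all and 56.8% of lower distal windows, and the ETS motif CCGGAAG in 4.05%, 7.59% and 12.0%. The letters AGGGGGC of the CTCF motif were in 10.3%, 21.7% and 31.4%. Shares also differed with base composition. Within windows under 40% GC the AP-1 share was 46.8% of higher and 44% of all, and above 50% GC it was 39.3% and 21.6%, so the difference was small in AT-rich windows and larger in GC-rich ones. For FOX the same pairs were 21.9% and 19.4%, and 17.5% and 8.08%. For RUNX they were 26.6% and 23.2%, and 18.4% and 13.5%. For TEAD they were 50.1% and 49.8%, and 51.0% and 42.7%. The class above 50% GC is broad, and the percentage called higher fell from 5.26% in the sixth GC group to 0.201% in the last. Higher and all windows were thus not matched in GC there, and KLF/SP was in 40.2% and 65.2% of them. Whether the larger differences in that class follow from GC was not tested. In the GC class just below 50%, higher and all windows barely differed in TEAD (52.2% and 52.3%) and RUNX (21.5% and 21.6%). Of the 8 leading windows on each side, 2 higher ones held AP-1, and KLF/SP was in 2 of the higher and in all 8 of the lower. A match is only a description of the letters, and most windows called higher were in the table only through PEA2.

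At promoters PEA2 was lower more often than higher. Of 13784 protein-coding genes with a window at the start of their canonical transcript, all 3 PEA2 libraries were above the 15 others for 755 (5.48%) and below them for 4324 (31.4%). With the thresholds, 67 genes (0.486%) were called higher and 458 (3.32%) lower. The median log2 difference over these genes was -0.56, lower than the -0.14 of all windows, and it was -0.55 as deposited, -0.89 after median centring and -0.28 when normalised within GC classes. The split of calls depended on scaling, with 27 and 777 after median centring, 101 and 177 within GC classes and 18 and 79 with bin medians removed. Without PEA1, 106 promoters were called higher. Of the 67 genes called higher, 37 (55.2%) would have been in the table without the PEA2 libraries. CpG-rich windows made up 26.2% of the promoters called higher, 88.5% of those called lower and 80.6% of all.

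The 10 leading promoter windows in PEA2 included those of a chemokine, a hormone, a growth factor and a transcription factor. CCL20, the chemokine that draws CCR6-bearing lymphocytes, held 5.44, 3.87 and 3.82 FPKM in PEA2 and 0.239 to 0.586 (median 0.349) elsewhere, a log2 difference of 3.29 (SE 0.247, limma adjusted p = 1.00e-13). FGF23, a bone hormone of phosphate balance, held 5.77, 5.03 and 4.70 against 0.223 to 0.708 (median 0.544), a difference of 3.18. For both genes all other lines lay together below 1 FPKM, and PEA2 was 12.2-fold and 10.0-fold above their mean. No other library passed 2 FPKM there, so both windows were in the table only through PEA2, and low values elsewhere were partly set by that rule. NLRP10, a member of the NLR family of innate immune proteins, held 5.44, 3.81 and 5.15 against 0.144 to 1.22 (median 0.446), a difference of 3.34. Its window, too, was listed only through PEA2.

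FOXA2, a pioneer factor of endoderm and glandular epithelia, held 15.5, 13.1 and 14.3 FPKM in PEA2 and 0.541 to 8.13 (median 4.10) in the others, a log2 difference of 2.84 (SE 0.135, limma adjusted p = 1.34e-18). PEA1 was second with a mean of 6.67 FPKM, A2780 and CP70 were lowest, and no library overlapped PEA2. Its bin on chromosome 20 (20 to 25 Mb) had a median of 1.94, and with that removed the FOXA2 difference was 0.85 and no longer called. HSD17B2, which oxidises estradiol to estrone, held 6.05, 3.70 and 4.39 against 0.144 to 1.84 (median 0.599), a difference of 2.79, with PEA1 next again. RANBP3L held 5.83, 4.45 and 5.81 against 0.111 to 1.78 (median 0.436), a difference of 3.28. Neither HSD17B2 nor RANBP3L was called once bin medians were removed (1.26 and 1.34).

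PTN, which encodes the growth factor pleiotrophin, held 11.9, 9.42 and 9.05 FPKM in PEA2 and 0.419 to 12.5 (median 0.758) in the others, a log2 difference of 2.93. It was shared with PEO1, whose replicate 3 gave the 12.5 FPKM, so the groups overlapped on deposited values, and the call was lost there and with bin medians removed (1.71). OR9A4, an olfactory receptor gene (11.9, 8.32 and 8.92 FPKM against 0.347 to 4.45, difference 3.55), TMEM71 (8.19, 4.74 and 6.48 against 0.227 to 2.45, 3.36) and PRSS1, which encodes cationic trypsinogen (9.67, 6.53 and 7.23 against 0.240 to 4.35, 3.21), completed the 10. OR9A4 and PRSS1 have close paralogs, and reads that align to several copies were not counted by the authors, so their levels are uncertain. PRSS1 was also lost with bin medians removed (1.99).

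More of the 67 promoters called higher are given here, chosen after their values were seen. IL7R, a chain of the interleukin 7 receptor, held 2.75, 2.49 and 2.75 FPKM in PEA2 and 0 to 1.21 (median 0.405) elsewhere, a log2 difference of 2.60. PI3, which encodes the protease inhibitor elafin, held 3.68, 3.58 and 3.42 against 0.198 to 1.20 (median 0.557), a difference of 2.53. For both genes PEA2 was clear of every other library. AGR2, a disulfide isomerase of mucus-secreting epithelia, held 4.01, 3.41 and 3.37 against 0.12 to 3.14 (median 0.338), a difference of 2.63, with a narrow gap to the highest other library. SAA2, an acute-phase serum amyloid gene, held 4.67, 3.87 and 4.35 against 0.111 to 1.63 (2.77), and its near-identical neighbour SAA1 differed by 2.61. Reads that align to both copies are not in the counts, so the levels of both are uncertain. CSF2, which encodes the cytokine GM-CSF (4.95, 4.10 and 5.01 FPKM against 0.523 to 2.77, difference 2.24), the prolactin receptor gene PRLR (2.27), the kynurenine monooxygenase gene KMO (2.71) and the serine protease gene PRSS8 (2.14) were also called. CCL28 (2.08) and LAMA3 (2.02) were called at their promoters as well as at the intronic windows described above. None of the 11 promoters in this group was called with bin medians removed, where their differences were 0.34 to 1.98, and IL7R, in the highest bin of all (median 1.97), was at 0.67. Of the 67 promoters called higher 12 stayed called in that setting, among them CCL20 (2.68), FGF23 (2.37) and NLRP10 (2.47), and of the 458 called lower 28 did.

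**Figure D5:**
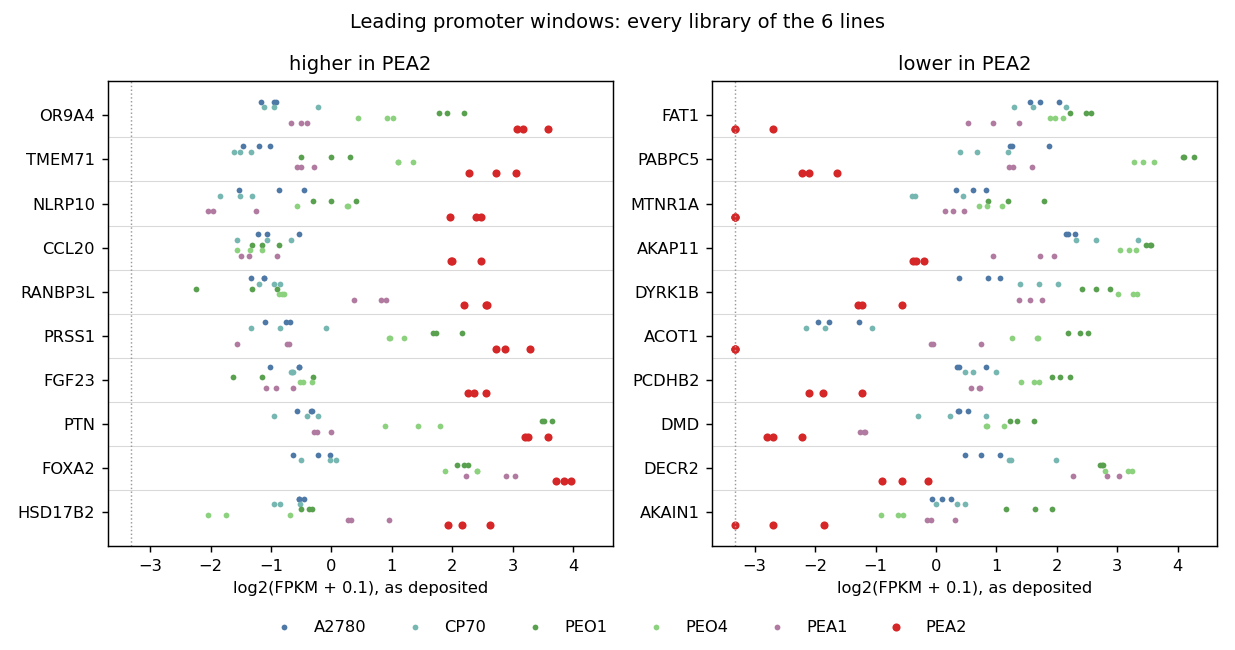
Deposited accessibility as log2(FPKM + 0.1) (x axis) of every library at the 10 leading promoter windows of each direction (rows), with lines in colour, PEA2 in red and a dotted line at 0 reads. At CCL20 and FGF23 the 15 other libraries lie together, at PTN the PEO1 libraries reach PEA2, and at FAT1, MTNR1A and ACOT1 PEA2 lies at or next to 0 reads.

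Promoters lowest in PEA2 after FAT1, PABPC5 and MTNR1A belonged to genes of varied function. AKAP11, an anchor protein for protein kinase A, held 0.769, 0.694 and 0.666 FPKM in PEA2 and 1.82 to 11.7 (median 6.17) elsewhere, a log2 difference of -3.24 (SE 0.117, limma adjusted p = 1.94e-21). DYRK1B held 0.330, 0.578 and 0.311 against 1.21 to 9.93 (median 3.27), a difference of -3.23. Neither overlapped another line. DECR2, a peroxisomal enzyme of fatty acid breakdown, held 0.440, 0.809 and 0.577 against 1.29 to 9.36 (median 6.47), -3.00, and lay in the lowest bin of chromosome 16, where removal of the bin median left -1.31 and no call. ACOT1, an acyl-CoA thioesterase gene with close paralogs, had 0 reads against 0.126 to 5.58 FPKM (median 0.863). It was at least 12.0-fold below the mean of the other lines, which rested on PEO1 (5.05) and PEO4 (2.83). A2780 (0.221) and CP70 (0.228) were not far above the 0.157 FPKM that 3 reads give in PEA2. DMD, the dystrophin gene, had 1, 2 and 1 reads in the PEA2 libraries (0.0550, 0.116 and 0.0444 FPKM) against 0.320 to 2.97 FPKM, with PEA1 lowest of the rest. PCDHB2, a protocadherin gene in a cluster of similar genes (0.330, 0.173 and 0.133 against 1.17 to 4.54), and AKAIN1 (0.0550, 0 and 0.177 against 0.432 to 3.66) followed.

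The label of an HGSOC line was read against markers of its tissue. At the promoters of the Müllerian factors PAX8 (2.97, 1.97 and 2.48 FPKM), SOX17 (2.42, 1.97 and 2.62) and WT1 (4.78, 3.53 and 3.99), PEA2 was open, at log2 differences of -0.13, 1.02 and 0.30. None lay beyond all 15 other libraries. ESR1, the oestrogen receptor gene, held 1.48, 0.867 and 0.799 FPKM, against means of 8.18 in PEO1 and 7.53 in PEO4 and of 0.433 to 0.673 in the other lines, and PGR, MUC16, FOLR1, HOXA9 and HOXA11 had no promoter window in the table. The epithelial promoters of CDH1 (2.69, 1.91 and 2.71 FPKM) and EPCAM (1.65, 2.08 and 2.53) were open at levels between those of the other lines. KRT18 was lower than in all others (1.54, 0.983 and 1.29 against 0.744 to 9.07, -1.43, below on the normalised scale but not as deposited). Of the 18 Müllerian genes 13 had a promoter window, with 1 below all others (MSLN), none above and a median of 0.19, against 31.4% below, 5.48% above and a median of -0.56 over all promoters. MSLN overlapped other libraries as deposited and was at -0.30 with its bin median removed. Of 26 epithelial genes 2 were above (OVOL2 and MARVELD3) and 2 below (KRT18 and LLGL2), and the median was -0.18. OVOL2, a repressor of mesenchymal genes, held 5.66, 3.76 and 5.01 FPKM against 0.827 to 7.07, a difference of 1.48 that became -0.30 with its bin median removed.

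Markers of other cells were few in the table. The promoters of the fibroblast genes COL3A1, PDGFRB, DCN and LUM, the endothelial genes CDH5, VWF and TIE1, the blood genes PTPRC, SPI1 and CD3E and the neural genes SOX10 and NEUROD1 had no promoter window in it. Of 3 fibroblast promoters listed, 2 were below all others and none above (median -1.44). Of 4 mesothelial ones, LRRN4 was above (8.02, 7.17 and 7.90 FPKM against 0.379 to 10.7, difference 1.94) and MSLN and UPK3B below, with UPK3B called lower (0.495, 0.462 and 0.444 against 0.467 to 9.81, -2.35). The UPK3B call was lost as deposited, within GC classes, at both larger pseudocounts and with bin medians removed (-0.93). Blood and neural markers had 1 each above, CD14 (1.24) and NKX2-2 (1.37), of 2 and 3 listed, and the single endothelial promoter lay within the range of the others.

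Genes of platinum response were read from lists against the background of 31.4% of promoters below all others, 5.48% above, and a median of -0.56. Of 29 genes for homologous recombination and the Fanconi anaemia pathway, which repair platinum crosslinks, 10 were below, none was above and the median was -0.65. SLX4, the scaffold of crosslink nucleases, was called lower, with 0.659, 1.16 and 1.20 FPKM against 1.73 to 10.2 (median 3.71), a log2 difference of -2.28. It lies in the lowest bin of chromosome 16 and was at -0.59 with the bin median removed, and the call was lost there, within GC classes and at both larger pseudocounts. The 10 below included BRCA1, BRCA2 and FANCD2, which overlapped other libraries as deposited. Of the 10 only SLX4 and XRCC3 separated there. With bin medians removed BRCA1 was at -0.30, BRCA2 at -1.27 and FANCD2 at -0.98. Of 22 genes for excision, mismatch and translesion repair, 8 were below, 2 above and the median was -0.55. REV3L, the catalytic subunit of the translesion polymerase zeta, was called lower (2.20, 1.73 and 2.00 against 2.15 to 21.0, -2.11), although it met the lowest other library on deposited values, where the call was lost, as it was within GC classes (-1.46) and with bin medians removed (-1.65). ERCC6 (0.73) and ERCC8 (0.54), both of transcription-coupled repair, were above all others, and both turned negative after median centring.

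Of 24 promoters for platinum transport, glutathione and NRF2, 7 were below, none above and the median was -0.58. GSR, glutathione reductase, was called lower with 1.81, 1.16 and 1.77 FPKM against 3.03 to 13.6 (median 5.58), a log2 difference of -2.34. LRRC8A, a subunit of the volume-regulated anion channel through which platinum drugs can enter cells, was called lower with 1.43, 1.56 and 1.38 against 2.36 to 13.8 (median 5.23), -2.10. SLC31A1, the copper importer that also carries cisplatin, was among the 7 below, without passing the fold threshold. With bin medians removed GSR was at -1.45 and LRRC8A at -1.13, and neither was called there or within GC classes, and LRRC8A also lost its call as deposited. Of 23 genes of the cell cycle and apoptosis, 9 were below and BCL2L1 above, with a median of -0.75. CDK4, the G1 kinase, was called lower with 1.54, 0.809 and 1.64 FPKM against 2.38 to 14.8 (median 5.06), -2.46, and was at -1.40 without a call with its bin median removed. In these lists the shares below all others, 7 of 24 to 9 of 23, were close to the 31.4% of all promoters.

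Signalling genes were read the same way. Of 17 genes of AP-1, TEAD and YAP, 8 were below all others, AMOTL2 was above and the median was -0.98. FOSB, an AP-1 subunit, was called lower with 0.605, 1.04 and 1.15 FPKM against 1.20 to 13.9 (median 6.12), a log2 difference of -2.34, which was -0.90 and not called with its bin median removed. FOS, JUNB, JUND, FOSL2, TEAD1, YAP1 and LATS2 were below without the call. The AP-1 letters were more frequent in distal windows called higher, while at the promoters of 5 AP-1 genes PEA2 was below all others on the normalised scale, and of these only FOSB was below them as deposited. Of 27 WNT and NOTCH genes 9 were below, none above and the median was -0.54, with the WNT inhibitor gene DKK1 called lower (0.714, 0.636 and 0.710 against 0.985 to 16.8, -2.32). Of 23 genes of TGF-beta and BMP 7 were below, TGFB1I1 was above and the median was -0.39, with the signal transducer SMAD2 called lower (2.14, 1.27 and 2.00 against 2.03 to 24.2, -2.02). DKK1 lost its call within GC classes and SMAD2 in 14 of 36 settings, among them the values as deposited, GC classes (-1.37), bin medians removed (-1.37), edgeR, and without CP70 replicate 1, CP70 replicate 3, PEO4 replicate 1 or PEA2 replicate 2, where the promoter SMAD2 difference was -1.86 at the smallest (without PEA2 replicate 2).

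Of 22 growth factor receptor and ERK feedback genes 3 were above the others and 8 below, with a median of -0.35. KIT, the stem cell factor receptor, held 4.23, 4.10 and 3.15 FPKM against 0.758 to 2.88 (median 1.73), a log2 difference of 1.43 with no overlap. ERBB4 (0.80) and FGFR2 (0.99) were above on the normalised scale alone, and FGFR2 became -0.73 with its bin median removed. Of 20 mesenchymal genes, PRRX1, NT5E and TGFBI were above and CCN1, CCN2 and ITGA5, the first 2 of them targets of YAP, below, with a median of -0.47. TGFBI, an extracellular matrix protein induced by TGF-beta, held 5.99, 4.45 and 5.10 FPKM against 0.960 to 5.17, a difference of 1.81, with PEA1 replicate 2 overlapping it as deposited. Of 15 oncofetal and stem-like genes SOX2, the stem cell factor, was above (7.47, 5.43 and 6.61 against 0.539 to 15.9, difference 1.47) though the PEO1 libraries overlapped it as deposited, HMGA2 and PEG10 were below and the median was -0.44. Of 26 interferon and antigen presentation genes 7 were below, among them B2M, HLA-B and HLA-C, and PARP9 and DTX3L, which share 1 window, were above (0.79), with a median of -0.29. No promoter in any of the 18 lists was called higher in PEA2. Over all genes with a promoter window 67 of 13784 (0.486%) were, a share at which these lists would hold few or none. The absence is therefore no result about the listed genes.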

How the data were processed

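ATAC-seq libraries of 6 ovarian cancer lines, 3 per line, were grouped by the line name in the labels. The authors aligned reads to hg19 with Bowtie2 (unique alignments), removed duplicates with Picard MarkDuplicates and blacklisted and mitochondrial reads, counted reads in 1 kb windows with featureCounts and deposited FPKM from the rpkm function of edgeR; versions are not given in the sources used here. The sources mention no Tn5 offset correction, a matter of few bases per 1 kb window. With windows of 1 kb the FPKM deposited by the authors equals RPM. The table holds windows above 2 FPKM in at least 2 libraries. In every library 100% of values were whole multiples of 1 read (tolerance 0.01 reads), which gave depths; limits from reads cover counting error only.

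Values were transformed to log2(FPKM + 0.1), quantile-normalised over the 18 libraries and fitted with limma 3.58.1 in R 4.3.3 (1 mean per line, eBayes with trend), Benjamini-Hochberg adjusted over 89428 windows. The trend stands in for the voom weights of the study, which need counts. A call needed a log2 difference over 2, adjusted p below 0.001 and all 3 PEA2 libraries beyond all 15 others. Fold changes on this scale understate low windows. Where every PEA2 library held 0 reads, folds are bounds against 3 reads per library. Promoters were the windows nearest to canonical starts of GENCODE release 44 on GRCh37 (centre within 1 kb). Windows named were the 8 leading calls per direction at least 50 kb apart, promoters the 10 leading calls, and genes the 10 with most calls, at least 500 kb apart, with listed genes called or beyond all others. PEA2, the lists and the tests were chosen with earlier results of these data known. The fits were also run on simulated reads in which all lines shared 1 level per window, apart from changes planted in PEA2. Differences between lines in GC course or in the share of reads in windows were not simulated. That run therefore does not bear on the choice of scaling. Some members of the lists are not reported here.

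Replicate libraries were compared. Chi-square per window was 1.07 to 1.97 between libraries of a line, where sampling noise gives about 1, so none was an identical copy of another. A library sequenced in parts would also give about 1, so these values cannot show that the libraries were prepared separately. Alternatives were other scalings, pseudocounts, filters, thresholds, libraries or lines left out, a replicate block and edgeR 4.0.16 on the recovered reads.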

Additional observations from a re-analysis of the deposited data

How the results depend on the processing

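The counts depended most on scaling, pseudocount and thresholds. Windows called higher, 5391, became 3280 after median centring, 2803 with normalisation within GC classes, 1837 with 5 Mb bin medians removed, 2030 and 759 with pseudocounts of 0.5 and 1 FPKM, 3554 over a mean of 1 FPKM, 2442 where 2 libraries of other lines passed 2 FPKM and 11923 at thresholds of 1 and 0.05. Windows called lower, 1392, became 541 as deposited, 2154, 779, 169 and 38 (median centring, GC classes, both pseudocounts), 617 in the windows passing 2 FPKM in other lines, 867 with an upper limit on depth, 10119 at the loose thresholds and 2202 without PEA1. Windows above all others, 12813, became 7641 with bin medians removed and 8457 in the windows passing in other lines, and those below, 11931, became 2953 as deposited and 7747 with the upper limit.

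Promoters called higher, 67, became 27 (median centring), 101 (GC classes), 18 (bins), 23 and 11 (pseudocounts), 42 (passing in other lines), 30 (upper limit), 450 (loose thresholds) and 106 (without PEA1). Those called lower, 458, became 210 as deposited, and 777, 177, 79, 103 and 25, 199, 126 and 3497 in the same order. Calls summed over the 5 single-line comparisons, 65050, became 35802 (bins), 24288 and 8832 (pseudocounts), 41312 (passing in other lines) and 210742 (loose thresholds). Larger pseudocounts shrink differences of low windows by construction, and for the rest the cause was not tested. edgeR on recovered reads called 6069 windows higher and 1354 lower, of which 4640 and 1078 were also called by limma.

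Leaving out each library gave 5227 to 6077 windows higher, 1308 to 1833 lower, 12837 to 14868 above and 12015 to 14293 below all others, 62 to 78 and 423 to 621 promoters, and 63254 to 69698 single-line calls. Replicate numbers did not pair the libraries (correlations of deviations -0.11 to 0.07 for 15 same-numbered pairs). A fit with a replicate block gave 5391, 1392, 67, 458 and 65050 calls, as in the main fit. Every line holds the same replicate numbers, so the block cannot change the log2 differences or the separation from the other libraries. Only p-values could move, and the equal counts therefore do not test pairing. Directions reversed only at these listed promoters: AMOTL2 (-0.31), ERCC6 (-0.0049), ERCC8 (-0.23) and BCL2L1 (-0.045) after median centring, AMOTL2 (-0.81), ERCC8 (-0.35), OVOL2 (-0.30), NT5E (-0.24), FGFR2 (-0.73), NKX2-2 (-0.62), ERBB2 (0.13), FANCG (0.41) and CDKN2C (0.33) with bin medians removed, and AMOTL2 (-0.062) and ERCC8 (-0.00016) by edgeR. Of 45 windows and promoters named that were called, 20 were called under every alternative whose filter kept them. Each was fitted in 35 to 37 alternatives. PABPC5 counts in both numbers as a window and as a promoter, and had no bin of enough windows. At 28 to 40 reads per window, low windows cannot be ranked finely.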
